A study of Macaca mulatta with 4 samples.

Results

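The strongest DNase I hotspots of rhesus macaque morulae were gathered as merged autosomal regions that hold at least 1 hotspot from the top 1% of scores in its own library. Overlapping or touching hotspots of 4 libraries were first merged into 222776 regions on the 20 autosomes, and 1961 of them held such a hotspot. These regions were 0.88% of the merged autosomal regions and 2.15% of the merged length, 5.21 Mb in all. A region was kept whatever number of libraries called it. The members were chosen by the score alone, so scores and ranks are given as a description, with no test.

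The embryos were androgenetic (AG), with nuclear genomes from sperm only, or gynogenetic (GG), with nuclear genomes from the oocyte only, and both were collected at the morula stage, a compact ball of cells before the blastocyst. Each group had 2 libraries, and in all 4 the chromatin was digested for 5 min at 37 °C in 40 U/ml of DNase I. The labels give no strain, donor or number of pooled embryos, and do not say that the replicates came from separate embryos. P-values between libraries therefore cover no more than how these samples scatter, part of which may be technical. Where 4 values follow each other without labels, they are those of AG replicate 1, AG replicate 2, GG replicate 1 and GG replicate 2, in that order.

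DNase I cuts DNA that is not wrapped tightly in nucleosomes. A hotspot is a stretch with more cuts than its surroundings, and such stretches commonly mark promoters, enhancers and insulators. Within a library the strongest sites are often promoters of active genes and sites bound by architectural proteins, while weaker sites tend to be distal elements that differ more between cell types. In an embryo with genomes from a single parent, imprinted loci can be open on either all or none of the copies. Positions below refer to the rheMac8 build, counted from 1. Genes, sequence, repeats and copy number of these regions were not analysed here, and the lists hold no gene-level values against which morula markers could be checked.

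The lists held 64730, 85318, 93171 and 84865 hotspots, at a false discovery rate of 0.01 according to their names. Their top 1% held 647, 853, 931 and 848 hotspots, of which 635, 833, 908 and 817 lay on autosomes. The lists hold no read counts, so the depth of each library is unknown, and a hotspot missing from a list is not evidence of closed chromatin. The score is the authors' own value on a scale that the sources used here do not give, and scores of different libraries are set side by side only as a description.

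The score fell steeply within the top 1%. Its highest value was 1200, 1371, 1312 and 1330, against medians of 20.1, 22.2, 22.7 and 22.8 for the top hotspots and 5.5, 5.16, 5.33 and 5.44 for whole lists. Only 55, 98, 78 and 73 hotspots reached a score of 100. At the edge the scores were nearly continuous. The last hotspot inside scored 16.24, 17.28, 18.94 and 18.95, and the first outside 16.22, 17.27, 18.94 and 18.95. In AG replicate 1, for example, both lay on chromosome 4, the former at 128514901 to 128516616 and the latter at 39232884 to 39235809. Membership near the edge therefore separates hotspots of almost the same score.

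The highest-scoring region was the same in all 4 libraries. It lay on chromosome 5 at 155664170 to 155668710, 4541 bp wide, and ranked 1 in each list, with the highest scores given above. A neighbour at 155661958 to 155663387 scored 466, 612, 454 and 425. Both AG scores were above both GG scores there, by a small margin for AG replicate 1, whereas in the top region AG replicate 1 was the lowest of the 4.

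Chromosome 12 held another such pair. The region at 94708924 to 94712049 scored 761 and 1150 in AG and 935 and 890 in GG, and ranked 2, 3, 2 and 2. The region at 94714174 to 94717919 scored 521 and 899 in AG and 760 and 641 in GG. On chromosome 17, the region at 6544226 to 6545436 scored 719 and 725 in AG and 766 and 645 in GG. In all 3 regions the AG and GG scores overlapped. These 5 regions were named because their lowest within-list percentile was the highest among members in the top 1% of all 4 libraries.

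Most members were called widely. Of the 1961, 1257 (64.1%) were called in all 4 libraries, 168 (8.57%) in 3, 167 (8.52%) in 2 and 369 (18.8%) in 1. Among all merged autosomal regions the order was the opposite, with 5.91% called in all 4 and 74.9% in 1. A region called in all 4 libraries was a member in 9.55% of cases, against 0.221% of regions called in 1. Regions called in more libraries had more chances to hold a top hotspot, since membership needed only 1.

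Being in the top 1% was shared less than being called. Of the members, 1301 (66.3%) were in the top 1% of a single library, 335 (17.1%) of 2, 144 (7.34%) of 3 and 181 (9.23%) of all 4. Among the 1301 regions at the top of a single library, 715 (55%) were still called in all 4 libraries at a lower rank. Another 369 (28.4%) were called in no other library. The share called in all 4 was 47.1% and 39.1% for regions at the top of AG replicate 1 or 2 alone, and 69.1% and 63.2% for GG replicate 1 or 2 alone. The GG values lay above both AG values.

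**Figure D1:**
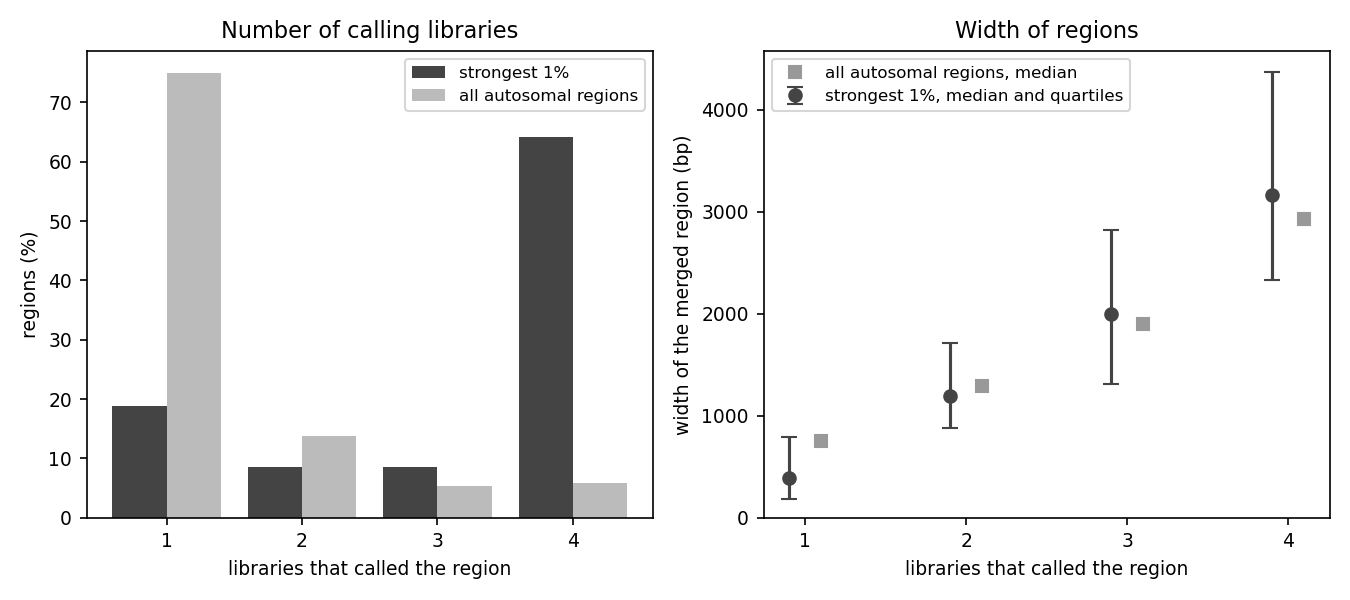
Left, percent of regions (vertical axis) called in 1, 2, 3 or 4 libraries, for the 1961 members and all 222776 merged autosomal regions. Right, median width in bp with quartiles, by the number of calling libraries; 64.1% of members but 5.91% of all regions were called in all 4, and members called in 1 library had a median width of 395 bp.

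Width separated these classes. Members had a median width of 2418 bp (quartiles 1145 and 3635), against 868 bp (630 and 1175) for all merged regions. Members called in all 4 libraries had a median of 3161 bp, and those called in 1 had 395 bp. The latter was below the 756 bp of all regions called in 1 library, while the former was above the 2927 bp of all regions called in 4. A merged region spans the union of its hotspots, so width grows with the number of libraries by construction. The direction of the difference from all regions nevertheless turned between the 2 classes. Of 131 members under 250 bp, 129 were called in a single library. Of 415 members of 4000 bp or more, 395 were called in all 4.

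The widest member lay on chromosome 13 at 27499577 to 27513484 and spanned 13908 bp. Its best score was 12.9 and 12.4 in AG, outside the top 1%, and 24.6 and 21.8 in GG. The narrowest lay on chromosome 14 at 67859751 to 67859760, 10 bp wide, and was called in AG replicate 1 only, with a score of 27.8.

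The same mixture of narrow and wide intervals appeared within each library. Hotspots under 250 bp made up 7.57%, 7.39%, 4.08% and 6.6% of the top 1%, against 3.38%, 4.64%, 3.93% and 3.59% of whole lists. Hotspots of 2000 bp or more made up 30.4%, 29.4%, 45.3% and 43% of the top, against 8.93%, 6.69%, 11.1% and 10.7% of whole lists. Both ends of the width range were thus more frequent in the top than in whole lists in all 4 libraries, by a small margin for narrow hotspots in GG replicate 1. Wide hotspots were more frequent still between 1% and 2% of the list, at 39.3%, 40.4%, 59% and 56.3%, so they did not set the top apart. Narrow ones made up 4.17%, 5.04%, 3.97% and 3.65% there, less than in the top.

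Narrow and wide top hotspots were found again at very different rates. Of top hotspots under 250 bp, 73.5%, 76.2%, 71.1% and 66.1% overlapped no hotspot of any other library. Among all such narrow hotspots the shares were higher in every library, at 82%, 85.1%, 81.6% and 81.5%. Of top hotspots of 2000 bp or more, 87.8%, 89.2%, 93.1% and 94.5% overlapped a hotspot in each of the other 3. A wide interval has a larger target for overlap, and the part of width alone in this difference was not tested.

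Each library's top hotspots were then looked up in the other 3 lists, which had no part in choosing them. An overlap of at least 1 bp counted. Of the top hotspots of AG replicate 1, 78.5% were found in AG replicate 2, 75.1% in GG replicate 1 and 75.3% in GG replicate 2. For those of AG replicate 2, 71.9% were found in AG replicate 1, and 74.6% and 73.3% in GG replicates 1 and 2. Those of GG replicate 1 were found in GG replicate 2 at 87.9% and in AG replicates 1 and 2 at 81.2% and 84.3%. Those of GG replicate 2 were found in GG replicate 1 at 86.7%, and in AG at 79.7% and 82.5%. Over whole lists the same 12 comparisons gave 25.4% to 42%. High recovery was not particular to the top 1%. Hotspots ranked between 1% and 2% of a list were found in the other library of the group at 83%, 82.2%, 90.1% and 91.6%. In all 4 libraries this was above the share for the top 1%. Where a top hotspot was found, the median of the best percentile it met in the other list was 97.9 to 99.4, so most matches ranked high there too.

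The overlap was not clearly higher within groups than between them. Its mean was 81.2% (range 71.9% to 87.9%) over the comparisons within a group and 78.3% (73.3% to 84.3%) between groups, a difference of 2.98 percentage points. The ranges overlapped, and the top hotspots of AG replicate 2 were found more often in either GG library than in AG replicate 1. Leaving out AG replicate 1 made it 8.59 and leaving out AG replicate 2 made it 9.44. It was -2.51 when GG replicate 1 was omitted and -3.61 when GG replicate 2 was. It therefore turned direction when either GG library was left out. Without an AG library only the GG pair remained within a group, and without a GG library only the AG pair. These values thus restate that the GG pair shared more than the AG pair. With all 4 libraries the difference was 5.46 when the midpoint of the hotspot had to lie in a hotspot of the other list. It was 6.29 when 50% of the hotspot had to be covered.

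Asking for a match within the other library's own top 1% lowered these values to 34% and 45.6% for the AG pair, 46% and 50.7% for the GG pair, and 29.9% to 43.7% between groups. The mean was 44.1% within and 38.5% between groups, a difference of 5.55 points that became 11.8 without AG replicate 2 and 1.18 without GG replicate 2. Lists of different length give such shares different ceilings. With the 647 strongest hotspots of every list, the AG pair shared 42.2% and 41.4% and the GG pair 48.8% and 49.1%. AG replicate 2 shared 44.5% with GG replicate 1 and 44.2% with GG replicate 2, above its share with AG replicate 1. At equal numbers only the GG pair stood above all pairs that mixed the groups.

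**Figure D2:**
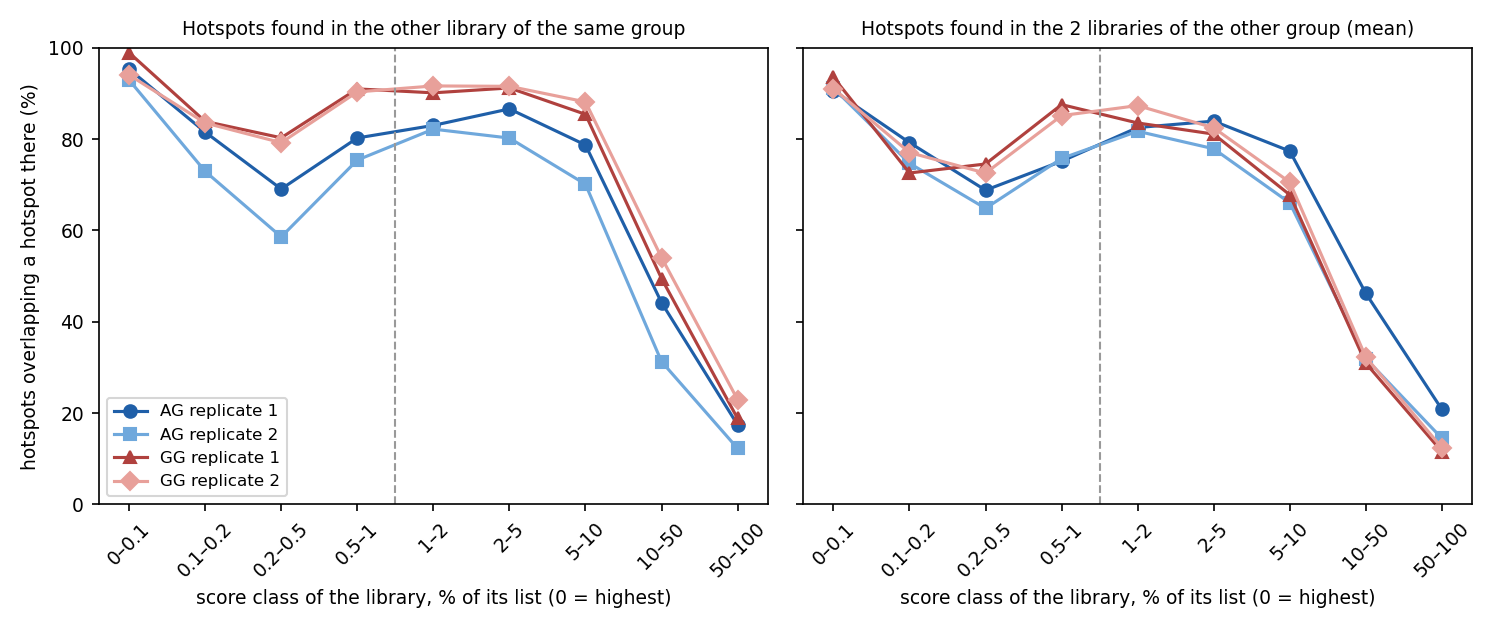
Percent of hotspots (vertical axis) that overlap a hotspot of another library, by class of score (percent of the list counted from the strongest), with 1 line per library. Left, found in the other library of the same group. Right, mean over the 2 libraries of the other group. The class from 0.2% to 0.5% was found less often than the class from 0.5% to 1% in all 4 libraries.

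Recovery did not rise steadily with the score. In the strongest 0.1% of a list, 95.3% and 92.9% of AG hotspots and 98.9% and 94% of GG hotspots were found in the other library of the group. Between 0.2% and 0.5% these shares were 69.1% and 58.6% in AG and 80.3% and 79.2% in GG. Between 0.5% and 1% they were 80.2% and 75.4% in AG and 91% and 90.3% in GG, higher than the preceding class in all 4 libraries. Median widths moved alongside. The class from 0.2% to 0.5% had medians of 1060, 1122.5, 1693 and 1426 bp, and the class from 0.5% to 1% had 1682.5, 1637, 2139 and 2066.5 bp. Among merged regions, those with a best score from 25 to 50 were called in all 4 libraries in 45.1% of 419 cases and in 1 library in 29.6%. Those with a best score under 20 were called in all 4 in 67.2% of 637 cases. At a best score of 100 or more, 85 of 107 (79.4%) were called in all 4.

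Top hotspots were narrower in AG than in GG. Their median width was 1316 and 1381 bp in AG (mean 1348.5 ± 46 bp, SD, n = 2) and 1747 and 1866 bp in GG (1806.5 ± 84.1 bp, SD, n = 2), so both GG libraries lay above both AG libraries. GG was 458 bp wider, a ratio of 1.34. An exact two-sided permutation test of 2 libraries against 2 gave p = 0.333, the smallest p this design allows. The remaining hotspots had medians of 902 and 888 bp in AG and 901 and 916 bp in GG, which overlapped (exact permutation p = 0.667). For the top hotspots AG minus GG became -156 bp for the top 0.5%, -489 bp for the top 2% and -262 bp with the same number from every list. Leaving out each replicate in turn gave -517.5 to -398.5 bp.

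The width difference depended on the class of score. In the strongest 0.1% the medians were 1208.5 and 1362 bp in AG and 1232 and 1245.5 bp in GG, which overlapped. Between 0.1% and 0.2% AG was wider without overlap, with means of the 2 medians of 1134.5 bp in AG and 1081.5 bp in GG. Between 0.2% and 0.5% these means were 1091 bp in AG and 1559.5 bp in GG, the widest gap of the classes inside the top 1%. The mean was 1660 bp in AG and 2103 bp in GG between 0.5% and 1%, and 1735 and 2159 bp between 1% and 2%. In the weaker 50% of the lists it was 733.5 and 726 bp. GG hotspots were thus wider without overlap in each class between 0.2% and 50% of the list, outside as well as inside the top 1%, and not in the strongest 0.2% or the weaker 50%.

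**Figure D3:**
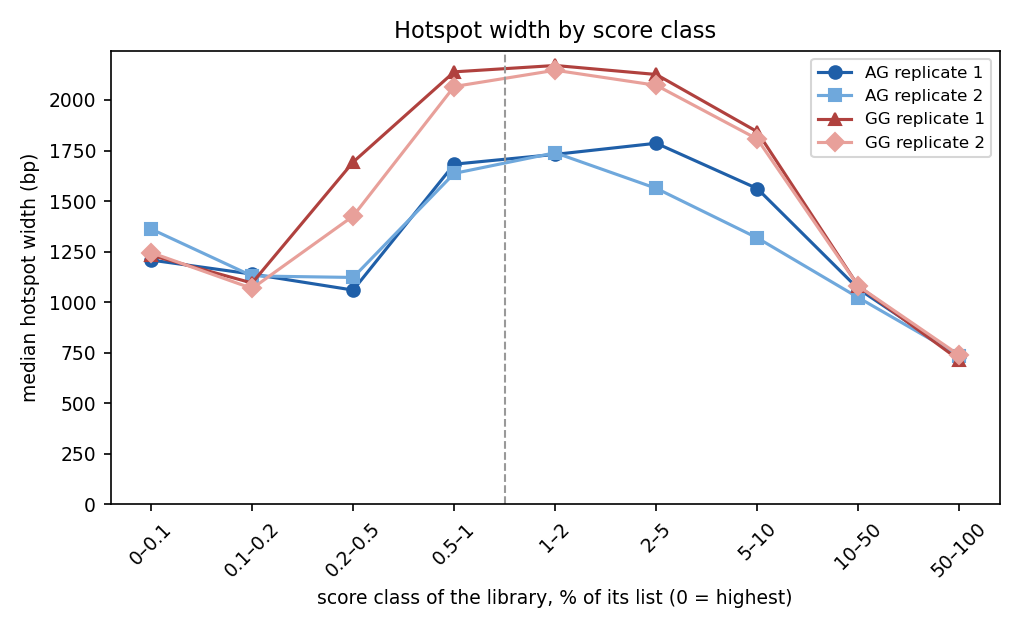
Median hotspot width in bp (vertical axis) by class of score (percent of the list counted from the strongest), with 1 line per library. The AG and GG lines overlapped in the strongest 0.1% and lay apart, with GG wider, between 0.2% and 2%, where the means of the medians were 1091 and 1559.5 bp (0.2% to 0.5%), 1660 and 2103 bp (0.5% to 1%) and 1735 and 2159 bp (1% to 2%).

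Chromosome 19 held the highest density of members. Its 193 members were 9.84% of all members, while the chromosome held 3.1% of merged autosomal regions and 7.63% of regions called in all 4 libraries. Of its regions 2.79% were members, or 3.6 per Mb up to the last hotspot of the chromosome, and 87.6% of these members were called in all 4 libraries. Chromosome 5 lay at the other end, with 70 members, 0.51% of its regions and 0.37 per Mb. There 32.9% of members were called in a single library, against 4.66% on chromosome 19.

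Chromosome 19 also took a larger share of the top hotspots in GG. The share was 8.03% and 8.28% in AG and 11.7% and 13.3% in GG, so the groups did not overlap, and AG minus GG was -4.38 percentage points (exact permutation p = 0.333, the smallest possible). It was -2.87 for the top 2%. Over whole lists the order was the opposite, with mean shares of 4.53% in AG and 3.44% in GG. The order turned with the score. At the very top chromosome 19 was not enriched, with 0% and 1.27% of AG and 1.11% and 0% of GG hotspots in the strongest 0.1%. Between 0.1% and 0.2% it held 4.76% and 9.64% in AG and 7.95% and 4.82% in GG. The groups overlapped in both classes. Between 0.2% and 0.5% the chromosome held 5.24% and 7.23% of AG hotspots and 13.1% and 13.6% of GG hotspots. Between 0.5% and 1% it held 11.9% and 9.95% in AG and 16.8% and 14.3% in GG. The groups overlapped again between 1% and 2%, with 9.27% and 11.2% in AG and 12.7% and 10.5% in GG. Between 2% and 5% it held 9.43% and 8.58% in AG and 7.27% and 7.77% in GG.

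The chromosome 19 members behind this difference were mostly called in both groups. Of the 193, 101 were in the top 1% of GG libraries only, and 94 of these were called in all 4 libraries, at a median within-list percentile of 94.3 and 97 in AG replicates 1 and 2. Another 33 were in the top of AG libraries only, 18 of them called in all 4. The members thus differed between groups mainly in rank, and ranks of lists of different length show no change of the sites themselves.

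Shares of top hotspots did not overlap between groups on 10 of 20 autosomes (50%), and on 7 for the top 0.5% and 7 for the top 2%. Over whole lists the shares did not overlap on chromosomes 2, 3, 4, 5, 10, 11, 16, 17, 19 and 20, as many autosomes. The count is therefore not particular to the top 1%. For the top 1%, AG minus GG was 1.59 points on chromosome 6, 1.31 on chromosome 17, 1.14 on chromosome 3 and -2.05 on chromosome 4. Mean whole-list shares in AG and GG were 5.96% and 5.81% on chromosome 6 and 2.59% and 2.98% on chromosome 17. They were 6.97% and 7.46% on chromosome 3 and 5.75% and 6.95% on chromosome 4. Chromosomes 3 and 17 thus went the opposite way over whole lists, chromosome 4 went the same way, and chromosome 6 overlapped. For the top 2% the differences were 0.978, 0.829, 0.346 and -1.02 in the same order, and chromosome 3 gave -0.089 for the top 0.5%. Chromosome 4 gave -1.31 without AG replicate 1 and chromosome 3 gave 0.712 without AG replicate 2 and 0.735 without GG replicate 2. Chromosome 17 gave 0.625 with the same number from every list, a setting chosen after seeing the data. The number of autosomes was 17 without GG replicate 1, where GG had 1 library.

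**Figure D4:**
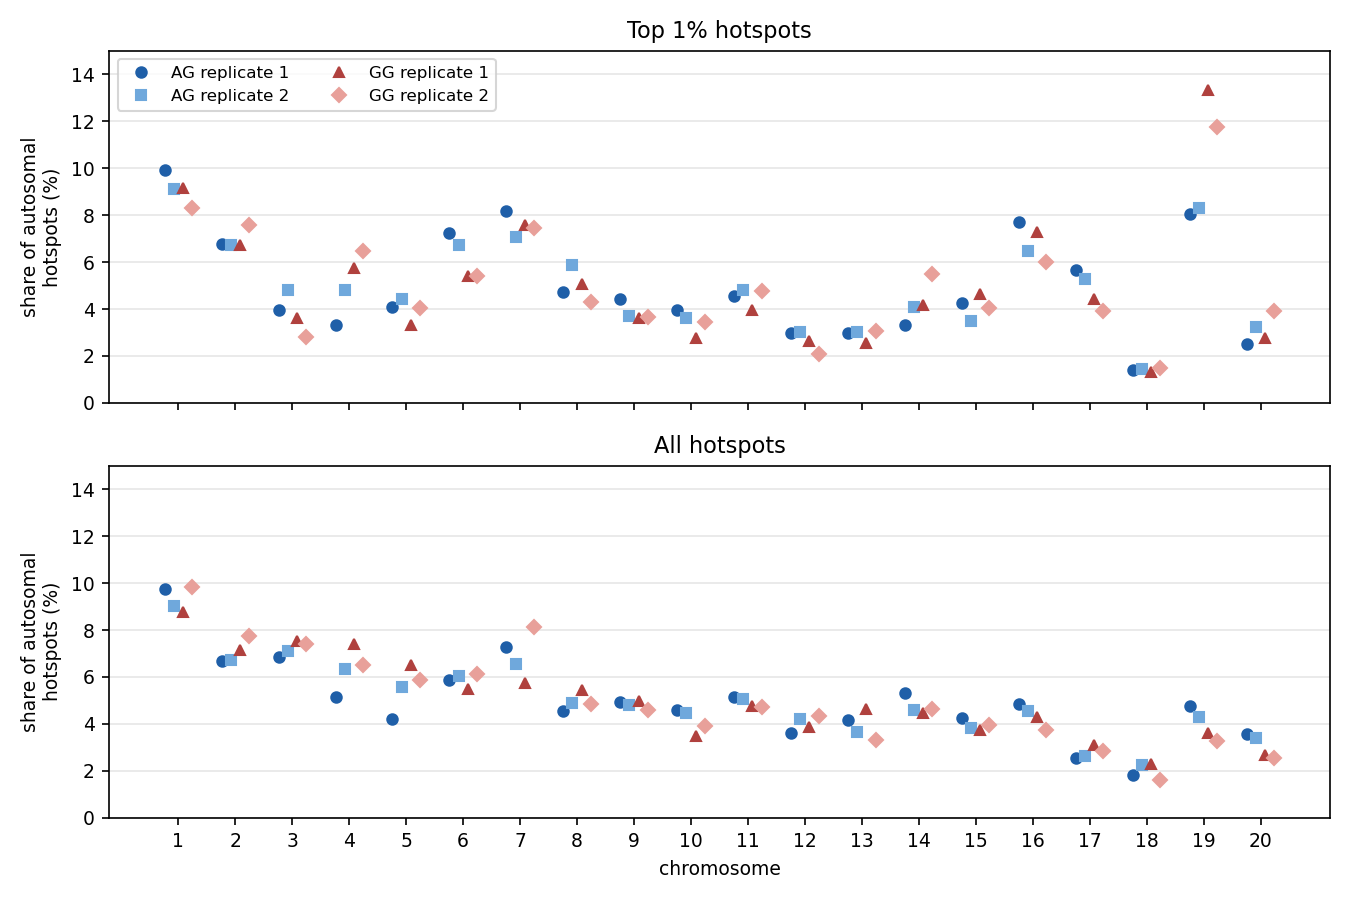
Percent of each library's autosomal hotspots on each autosome, with 1 point per library, for top 1% hotspots (upper panel) and all hotspots (lower panel). For top 1% hotspots on chromosome 19 the 2 GG libraries (11.7% and 13.3%) lay above the 2 AG libraries (8.03% and 8.28%).

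Few members were called in both libraries of 1 group and in neither of the other. The 369 members called in a single library are not counted here. AG-only members, which both AG libraries called and no GG library did, numbered 47 (2.4% of members), against a background of 2.12% of all merged autosomal regions. GG-only members numbered 45 (2.29%), against a background of 5.48%. Only 14 of the AG-only and 13 of the GG-only members were in the top 1% of both libraries of their group. The 51 members at the top of both AG and neither GG library were mostly called in GG as well, 30 of them in all 4 libraries. The same held for 96 of 122 members at the top of both GG and neither AG library. Leaving out AG replicate 1 gave 175 AG-only members, leaving out AG replicate 2 gave 126, and leaving out GG replicate 1 gave 79. The GG-only members numbered 78 and 105 when AG replicate 1 or 2 was omitted, and 99 and 98 when GG replicate 1 or 2 was. Each of these counts rests on 3 lists.

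The strongest AG-only member lay on chromosome 16 at 49112515 to 49117881, 5367 bp wide. Its best score was 596 in AG replicate 1 and 365 in AG replicate 2, ranks 5 and 26, and neither GG library had a hotspot there. The nearest GG hotspots lay 4.78 and 4.56 kb away. It was the third of 4 members in a stretch chosen for description after its values were seen. The region at 49102295 to 49105862 scored 86.4 and 121 in AG and 63.8 and 51 in GG. The region at 49106082 to 49109498 scored 170 and 235 in AG and 35.9 and 35.1 in GG. Both were in the top 1% of all 4 libraries. A 34 bp hotspot at 49118024 to 49118057 was called in AG replicate 1 alone, with a score of 46.8. The stretch thus held regions shared by all 4 libraries, one called in both AG libraries only and one called in AG replicate 1 only, within 15.8 kb.

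**Figure D5:**
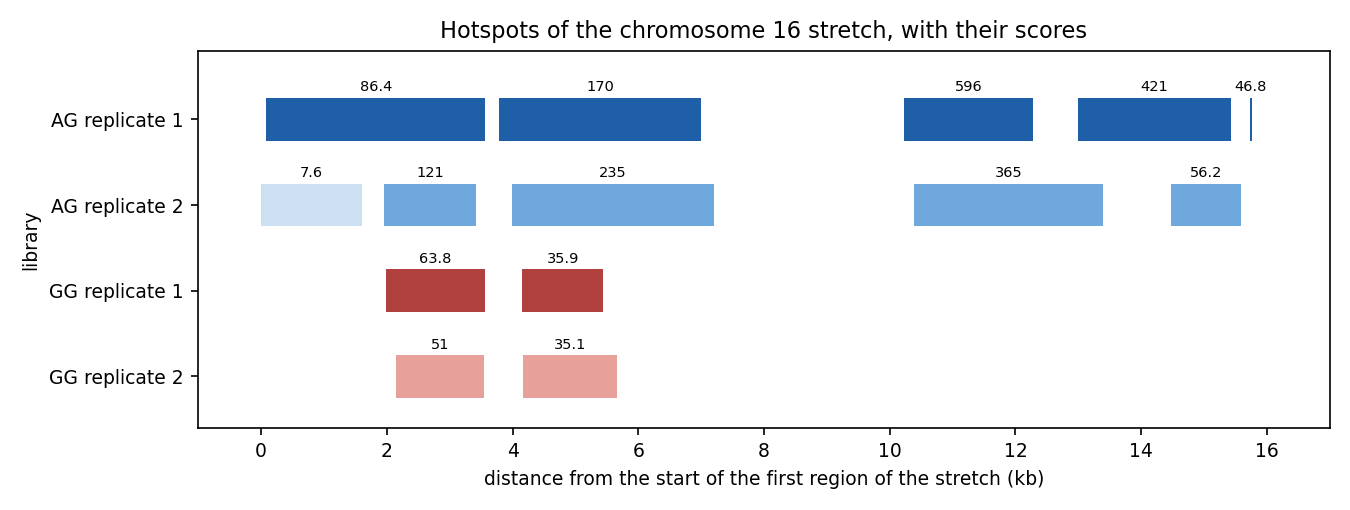
Hotspots of each library across the chromosome 16 stretch, against distance in kb from the start of its first region, with the authors' score above each bar (paler bars are outside the top 1%). All 4 libraries had hotspots in the first 2 regions, and only the 2 AG libraries had hotspots in the third, with best scores of 596 and 365.

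The other named AG-only members had weaker or less even scores. On chromosome 2 the region at 7090144 to 7091611 scored 95.8 and 139, with GG hotspots 0.955 and 0.864 kb away. On chromosome 16 the region at 24047939 to 24052866 scored 44.7 and 54.2. On chromosome 6 the region at 105126600 to 105127334 scored 57.1 and 47, and its nearest GG hotspots were 34.8 and 19.3 kb away. The region on chromosome 19 at 40861015 to 40863159 scored 30.3 in AG replicate 1 and 246 in AG replicate 2. Isolation thus ranged from 0.864 to 34.8 kb among these regions.

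The strongest GG-only member lay on chromosome 17 at 2304466 to 2305828 and scored 142 in GG replicate 1 and 98.9 in GG replicate 2. Its nearest AG hotspots were 2.53 and 10.9 kb away. The region on chromosome 15 at 16560373 to 16561393 scored 47.9 and 51.7, and that on chromosome 8 at 7270699 to 7271953 scored 49.5 and 38.2. The region on chromosome 19 at 41158096 to 41158346 scored 45.9 and 53.3 but covered 251 bp in GG replicate 1 and 44 bp in GG replicate 2. The region on chromosome 17 at 9106018 to 9106934 scored 39.2 and 36.2. None of the 5 reached the scores of the strongest AG-only member, although the scale of scores may differ between lists.

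Within members called in all 4 libraries, the covered length was compared between groups, a measure the rule did not use directly. Values were log2 of the bp covered by hotspots plus 100, centred on each library's median, over 13158 regions of which 1257 were members. With limma and Benjamini-Hochberg adjustment, 0 members passed an adjusted p of 0.05, in either direction, higher in AG or higher in GG, against backgrounds of 0%, 0% and 0%. At an unadjusted p under 0.05 there were 107 members and 1602 regions in all. On simulated data of this design, limma recovered 0% of 100 regions changed by log2 1 and 0% of 100 changed by log2 2. The absence of calls therefore says little about the members. The median AG minus GG difference was 0.16 (log2) over the members and 0.12 over all regions tested, and 0.07 and 0.03 when centred on each library's mean covered length. Before centring the order was the opposite: the median covered length of the members was 1990 and 1961 bp in AG and 2296 and 2220 bp in GG. The direction over all members thus rests on the centring.

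The smallest p belonged to a member on chromosome 12 at 49804536 to 49806448. Hotspots covered 1796 and 1913 bp of it in AG and 105 and 161 bp in GG, a log2 difference of 3.44 ± 0.36 (SE) with a limma adjusted p of 0.152. Its scores were 520 and 293 in AG and 96.7 and 82.2 in GG, all in the top 1%. A wide AG interval thus faced a short and still high-scoring GG interval. The scores did not overlap between groups. The region was picked for its small p in covered length, so the lack of overlap in that measure comes with the choice.

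On chromosome 11 the region at 98402293 to 98407365 was covered over 3229 and 5073 bp in AG and 1014 and 797 bp in GG, a difference of 2.41 on the log2 scale. On chromosome 5 the region at 75249974 to 75250494 was covered over 521 and 458 bp in AG and 65 and 65 bp in GG, while its scores overlapped, at 22.6 and 88.4 in AG and 52.3 and 61.5 in GG. Width and score thus need not order the groups alike.

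The 3 members with the smallest p in the other direction were wider in GG. On chromosome 7 the region at 81774918 to 81781393 was covered over 770 and 792 bp in AG and 6314 and 4585 bp in GG, a difference of -2.28, and scored 4.82 and 4.44 in AG and 23.5 and 23.9 in GG. On chromosome 17 the region at 4850194 to 4853978 was covered over 263 and 482 bp in AG and 3621 and 3301 bp in GG, a difference of -2.59. On chromosome 18 the region at 10045275 to 10052420 was covered over 1151 and 1250 bp in AG and 6454 and 5191 bp in GG, a difference of -1.82. None of the 3 passed the adjusted threshold. They were picked for a small p in covered length, so the lack of overlap between groups in that measure comes with the choice.

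Members in the top 1% of all 4 libraries had another member nearby more often than those in the top of 1 library. Over all members, 286 (14.6%) had another within 10 kb, and the median distance to the next was 191 kb. The share was 42.5% (77 of 181) for those in the top of all 4 libraries and 9.76% (127 of 1301) for those in the top of 1. It was not computed over all merged regions, so nearness is not shown to be particular to members. Members called in all 4 libraries had on average 1.5 other regions called in all 4 within 50 kb. Over all regions called in all 4 the mean was 1.3. There were 113 chains of at least 2 members no more than 10 kb apart, and 18 of these held at least 4. The chains below were picked after their values were seen.

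The chain with the most members lay on chromosome 7 at 60782604 to 60808741 and held 8 in 26.1 kb, 2 of them in the top 1% of all 4 libraries. On chromosome 2 a chain at 130160672 to 130168148 held 4 members in 7.48 kb, all in the top of all 4. Its highest scores were 240 and 637 in AG and 366 and 361 in GG, which overlapped. On chromosome 20 a chain at 30196964 to 30208950 likewise held 4 members, all in the top of all 4, with highest scores of 347 and 324 in AG and 289 and 318 in GG, where both AG values were above both GG values. Chains such as these contribute several members each, so members are not independent places in the genome.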

How the data were processed

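DNase-seq was measured in 4 libraries, grouped by their labels. The authors deposited 1 hotspot list per library, with positions and a score for each hotspot. The submitters' processing notes name rheMac8 as the build, and Trim Galore, SAMtools, Bowtie2 and deepTools 3.3.1 as tools. What each tool did, which program called hotspots and the scale of the deposited score were not given in the sources used here. Without read counts the depth is unknown and no counting interval is given.

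Hotspots were ranked by score within each list. Intervals that overlapped or touched were merged, and a region counted as called with 1 bp of overlap. Group means of 2 libraries were compared by exact two-sided permutation tests. Covered bp per region was tested with limma (lmFit and eBayes), without a block, and the step was tested on simulated data. Named regions were the highest-scoring member of each library; the 5 in the top 1% of all 4 with the highest lowest percentile; per group, the 5 group-only members with the highest percentile in the weaker library; the 3 members per direction with the smallest limma p; the widest and narrowest; and those at the edge of the 1%. Other regions were picked after their values were seen. The members and lists were chosen with earlier results of these data known.

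Alternatives were the top 0.5% and 2%, the same number from every list, hotspots of at least 100 bp, merging within 150 bp, 50% of a region covered, leaving out each replicate, and other limma settings. The same number and a minimum of 250 bp for chromosome shares were added after seeing the data. Genes and sequences were not used here, for want of a rheMac8 annotation. Software versions were limma 3.58.1 under R 4.3.3, scipy 1.17.1, pandas 2.3.3 and numpy 2.4.6 under Python 3.11.15, and matplotlib 3.10.9.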

Additional observations from a re-analysis of the deposited data

Results flagged for a closer look

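Chromosome X was outside the comparisons above. The top 1% of the lists held 11 and 19 hotspots on chromosome X in AG replicates 1 and 2, and 23 and 31 in GG replicates 1 and 2, so both GG libraries were higher. These were 64.7%, 39.6%, 28% and 26.5% of all X hotspots of those lists, of which there were 17, 48, 82 and 117. By the rule, only 1% of each whole list was at the top. The labels give no embryo sex, so the number of X copies is unknown, and the order of the groups on X is no measure of openness. Merged, the top hotspots made 55 regions on X, of which 8 were called in all 4 libraries, 5 were in the top 1% of all 4 and 34 were called in 1, with a median width of 452 bp over the 55.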

How the results depend on the processing

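Members numbered 862 for the top 0.5% of each list and 4007 for the top 2%. Those called in every library numbered 473 and 2726, those called in 1 library 210 and 637, and 276 were in the top 2% of every library. AG-only and GG-only members numbered 19 and 25 for the top 0.5%, 77 and 91 for the top 2%, and 80 and 162 with at least 50% of a region covered. Leaving out each replicate gave 69 to 175 AG-only and 78 to 105 GG-only members, an overlap difference of -3.61 to 9.44 percentage points, and 14 to 17 autosomes without overlap. The AG minus GG difference in the share of covered bp held by top hotspots was -0.252 percentage points and reversed to 0.108 with the same number from every list. Chromosome 3 reversed to -0.089 for the top 0.5%; the cause was not tested.

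With regions called in at least 2 libraries, limma called 15926 of 55847 regions (28.5%) and 99 of 1592 members (6.22%), the 6 named ones included; a region listed at 0 in both libraries of a group has no spread there. With the replicate number as a block, limma called 0 of all regions and 0 members. The differences between replicates 1 and 2 correlated at -0.0164 between the groups. The labels do not say whether equal numbers pair samples, and this value cannot exclude a pairing. Precision is limited by 2 libraries per group and unknown depth.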

Other observations

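A single Y chromosome region, at 11244082 to 11245442, held a top 1% hotspot in both AG libraries, with scores of 242 and 229, and in neither GG library. Whole lists held 1, 1, 0 and 0 hotspots on Y. GG nuclear genomes came from the oocyte only, so the absence there is no measure of openness. Members called in 1 library lay a median of 2.38, 5.28, 3.93 and 2.86 kb from the nearest hotspot of another library (AG replicates first, then GG), against 3.39, 4.86, 3.77 and 3.46 kb for other regions called in 1 library. The windows of 1 Mb with the most members both lay on chromosome 8, at 1 to 1000000 and at 7000001 to 8000000, with 14 members each.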
